A study of Chromochloris zofingiensis with 12 samples.

Results

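The 2 genes named neoxanthin synthase (NSY) in *Chromochloris zofingiensis*, Cz15g04070 and Cz01g02290, were followed across 4 culture conditions. They were chosen by name, as the NSY entries in the study's supplementary list of 25 carotenogenic gene IDs, and both were found among the 15274 genes of the expression table. Wild-type cells of this unicellular green alga, strain CCAP 211/14, were kept in continuous culture, diluted at 0.5 d−1, and mRNA was sequenced from cells taken 4 h after the light period began. The conditions were HL 1 mM (1 mM nitrate in the medium and a maximum surface irradiance of 1000 µE m−2 s−1), LL 1 mM (1 mM nitrate and 300 µE m−2 s−1), HL 10 mM (10 mM nitrate and 1000 µE m−2 s−1) and LL 10 mM (10 mM nitrate and 300 µE m−2 s−1), the last being the control. Each condition has 3 libraries, 12 in all. The study sampled over 3 consecutive days with triplicate analysis, without stating if a library stands for a day, a reactor or a repeat of the same sample. The p-values therefore reflect just the variation among these libraries, which may be technical.

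Neoxanthin synthase acts near the end of the β-branch of carotenoid synthesis. Zeaxanthin epoxidase (ZEP) converts zeaxanthin through antheraxanthin to violaxanthin, violaxanthin de-epoxidase (VDE) runs these steps in reverse, and NSY converts violaxanthin to neoxanthin. Neoxanthin is a light-harvesting xanthophyll of green algae and plants, bound to the major antenna complex of photosystem II, and in land plants it is also a precursor of abscisic acid. The deposited table gives gene IDs without products, so the name NSY rests on the study's list. The genome positions and the sequences of the 2 genes were not analysed here, and whether they resemble each other enough for reads to be assigned to the wrong one was not tested.

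Levels are in FPKM (fragments scaled to the length of the transcript and to the mapped total), a scale per transcript length on which genes can be compared, as far as their gene models are correct. The unit was inferred from the values and is not named in the sources. The study gives only an approximate number of reads per sample. Read counts are not in the table, so the count behind each value is unknown. The libraries differed in their median: over the 14916 genes above 0 in at least 1 library, it lay between 17.8 and 20.8 FPKM in the 6 libraries at 1 mM nitrate and between 12.6 and 14.7 FPKM in the 6 at 10 mM. Deposited values of a typical gene were therefore higher at low nitrate, with a median log2 change over all genes of 0.31 in LL 1 mM against LL 10 mM and 0.33 in HL 1 mM against HL 10 mM, and of 0.06 in HL 10 mM against LL 10 mM. After quantile normalization, which the study chose and which gives every library the same distribution, these medians were −0.04, −0.08 and 0.02. For the NSY genes, both scales are given below wherever they lead to different calls. In RNA from a whole culture, less transcript per cell and fewer cells that make it cannot be told apart.

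Cz15g04070 had 27.6, 25.5 and 28.7 FPKM in HL 1 mM, 18.9, 19.7 and 23.7 in LL 1 mM, 8.29, 8.77 and 11.0 in HL 10 mM and 14.1, 14.0 and 12.1 in LL 10 mM (deposited values). The 4 conditions did not overlap on this scale, and both conditions at 1 mM lay above both at 10 mM. How many of all genes separate 3 libraries from 3 was not counted. Such separation, here and below, is therefore only a description. Cz01g02290 had 19.6, 16.9 and 19.4 FPKM in HL 1 mM, 15.9, 17.1 and 18.8 in LL 1 mM, 12.4, 17.0 and 16.7 in HL 10 mM and 28.3, 37.2 and 36.8 in LL 10 mM. Here the 3 control libraries stood above all others, and the 3 stress conditions overlapped one another. Means below are ± SD over the 3 libraries of a condition (n = 3). Within libraries, Cz15g04070 had the higher FPKM of the 2 genes in 6 of 6 libraries at 1 mM nitrate and the lower in 6 of 6 at 10 mM.

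**Figure D1:**
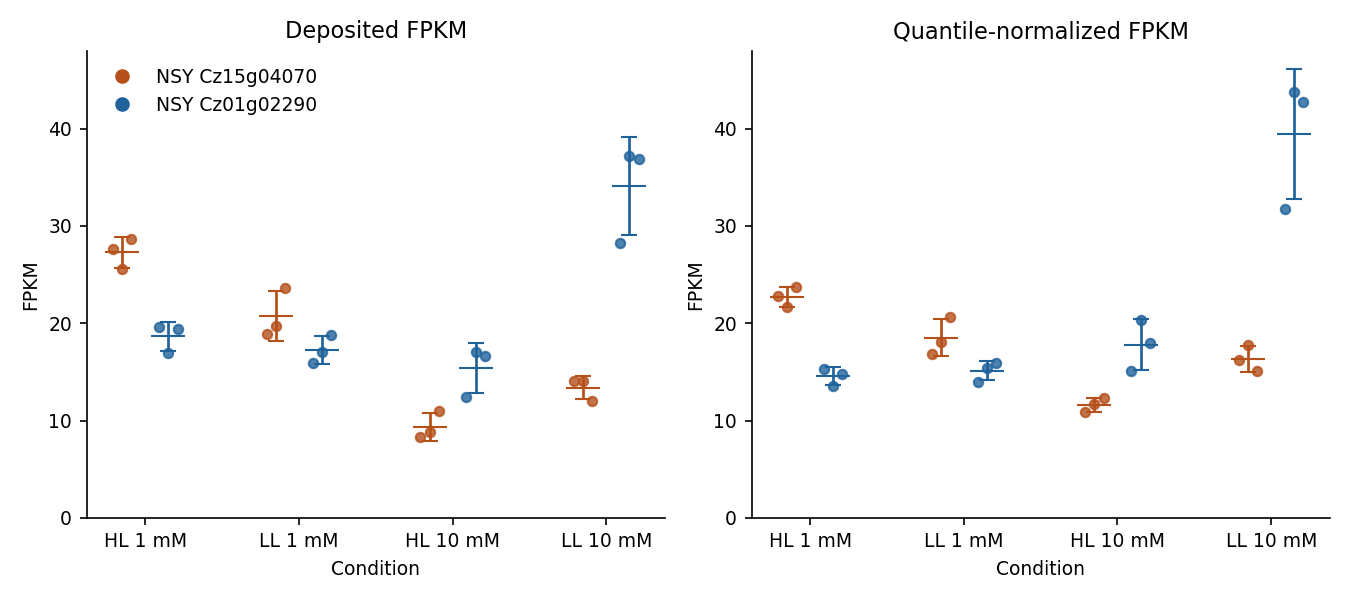
FPKM of NSY Cz15g04070 and NSY Cz01g02290 in each library (points) by condition, with the mean (line) and SD (bars, n = 3), as deposited (left) and after quantile normalization (right). Cz15g04070 lies above Cz01g02290 in the 1 mM conditions and below it in the 10 mM conditions on both scales, and Cz01g02290 is highest in LL 10 mM.

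Ranks within a library need no scaling. Quantile-normalized values follow these ranks, so the ranks are not a separate check on them. Cz01g02290 stood at the 45.4 to 48.6 percentile of the 14916 genes in HL 1 mM, 46.2 to 49.7 in LL 1 mM and 48.2 to 56.6 in HL 10 mM, against 69.8 to 78.1 in LL 10 mM. Cz15g04070 stood at the 58.5 to 61.2 percentile in HL 1 mM, 51.2 to 57.0 in LL 1 mM, 40.1 to 43.0 in HL 10 mM and 48.1 to 52.7 in LL 10 mM. Cz01g02290 thus ranked near the median gene under each stress and well above it in the control, while the rank of Cz15g04070 in LL 1 mM overlapped its rank in the control.

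In low light, low nitrate lowered Cz01g02290, while the difference for Cz15g04070 passed the test only on scales that leave the shift of all genes in place. Cz01g02290 averaged 15.1 ± 1.00 normalized FPKM in LL 1 mM and 39.4 ± 6.66 in LL 10 mM, which is −1.31 as a log2 fold change on the log2(FPKM + 1) scale (standard error 0.13, limma with Benjamini-Hochberg adjusted p = 2.6e-05). It fell in this comparison along with 25.2% of the genes tested, and 2.94% fell by at least 2-fold, Cz01g02290 among them, with its fold change at the 1.57 percentile of all genes. Cz15g04070 averaged 18.5 ± 1.93 normalized FPKM in LL 1 mM and 16.3 ± 1.36 in LL 10 mM, with a log2 difference of 0.17 (95% interval −0.02 to 0.36, limma adjusted p = 0.136), and its libraries overlapped after normalization. On deposited values, where they did not overlap, its mean in LL 1 mM was 1.55 times that in LL 10 mM. The log2 difference was 0.59 there (limma adjusted p = 0.00124), which includes the median shift of 0.31 given above. On that scale 7969 genes were called higher in this comparison and 985 lower, against 3179 and 3757 after normalization.

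In high light, low nitrate raised Cz15g04070, and Cz01g02290 did not pass the test. Cz15g04070 averaged 22.7 ± 1.03 normalized FPKM in HL 1 mM and 11.6 ± 0.720 in HL 10 mM, its log2 fold change was 0.91 (standard error 0.09, limma adjusted p = 1.2e-05), and the groups did not overlap. It rose here with 24.7% of the genes tested, and its fold change lay at the 91.7 percentile of all genes. The mean of its deposited FPKM in HL 1 mM was 2.91 times that in HL 10 mM, and the log2 fold change was 1.46 on that scale and 1.63 with libraries scaled to the same sum. Cz01g02290 averaged 14.6 ± 0.90 in HL 1 mM and 17.8 ± 2.62 in HL 10 mM, and its log2 difference of −0.27 (95% interval −0.56 to 0.03, limma adjusted p = 0.106) did not pass the test. The sign of that difference depended on the scale, since on deposited values it was 0.28 (adjusted p = 0.101). With libraries scaled to the same sum it passed at 0.45 (adjusted p = 0.00939). With the same sum, 9888 genes were called higher in this comparison and 886 lower, against 3688 and 4959 after quantile normalization. A call of higher on that scale was therefore common. After quantile normalization, the difference of Cz01g02290 was −0.37 (adjusted p = 0.0379) without HL 10 mM replicate 1, its lowest library there. Without LL 10 mM replicate 1 it was −0.26 (adjusted p = 0.0459).

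At 10 mM nitrate, higher irradiance lowered both NSY genes on each scale tried. Cz01g02290 fell to 17.8 ± 2.62 normalized FPKM in HL 10 mM, against 39.4 ± 6.66 in LL 10 mM, with −1.10 on the log2 scale (standard error 0.13, limma adjusted p = 0.000505). The smaller fall of Cz15g04070, to 11.6 ± 0.720 in HL 10 mM, against 16.3 ± 1.36 in LL 10 mM, was −0.46 (standard error 0.09, adjusted p = 0.00751). In neither gene did the libraries of the 2 conditions overlap. High light at ample nitrate lowered 5.67% of the genes tested, and 1.13% fell by at least 2-fold, Cz01g02290 among them. Its fold change lay at the 0.915 percentile of all genes and that of Cz15g04070 at the 6.13 percentile. Without HL 10 mM replicate 1 the change of Cz01g02290 was −0.98, just under 2-fold.

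At 1 mM nitrate, higher irradiance gave no change in either gene that passed the test. Cz15g04070 averaged 22.7 ± 1.03 normalized FPKM in HL 1 mM and 18.5 ± 1.93 in LL 1 mM. Its log2 difference of 0.28 (95% interval 0.09 to 0.48, limma adjusted p = 0.0928) missed the threshold. The libraries did not overlap, which is only a description and does not count against the test. Without LL 1 mM replicate 3 the difference was 0.37 (adjusted p = 0.0344). Cz01g02290 averaged 14.6 ± 0.90 in HL 1 mM and 15.1 ± 0.996 in LL 1 mM, with a log2 difference of −0.05 (95% interval −0.34 to 0.24, adjusted p = 0.889) that turned to 0.11 on deposited values. In this comparison 5.24% of all genes were called in either direction.

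The response to light thus differed between the nitrate levels for both genes. The interaction, taken as the light effect at 1 mM minus that at 10 mM nitrate, was 0.74 for Cz15g04070 (standard error 0.12, limma adjusted p = 0.012) and 1.05 for Cz01g02290 (standard error 0.19, adjusted p = 0.0153). A positive interaction was called for 3.1% of the genes tested and a negative one for 2.37%. The interaction passed the test for both NSY genes without quantile normalization, with libraries scaled to the same median or the same sum, and without each library in turn. Over those 12 fits the adjusted p was 0.00669 to 0.0382 for Cz15g04070 and 0.00534 to 0.0439 for Cz01g02290. Averaged over both irradiances, low nitrate raised Cz15g04070 by 0.54 (standard error 0.06, adjusted p = 2.15e-05) and lowered Cz01g02290, with a log2 effect of −0.79 (standard error 0.09, adjusted p = 2.68e-05). By this measure 27.8% of all genes were higher and 36.7% lower. Averaged over both nitrate levels, high light lowered Cz01g02290, with −0.58 (standard error 0.09, adjusted p = 0.00264), against 4.45% of genes lowered in all, and the effect on Cz15g04070 was −0.09 (95% interval −0.22 to 0.05, adjusted p = 0.465). The nitrate effect on Cz15g04070 was 1.02 on deposited values and 1.19 when libraries were scaled to the same sum. The nitrate effect on Cz01g02290 shrank to −0.33 (adjusted p = 0.00992) on deposited values and to −0.16 (adjusted p = 0.138) when libraries were scaled to the same sum.

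The combined stress is compared with the control in the same fit, and the 3 comparisons with LL 10 mM share its libraries. Cz15g04070 was higher in HL 1 mM than in LL 10 mM by 0.46 (standard error 0.09, limma adjusted p = 0.00126) and Cz01g02290 was lower, with −1.37 (standard error 0.13, adjusted p = 1.16e-05). In this comparison 25% of all genes rose and 28.8% fell, and 4.17% fell by at least 2-fold, Cz01g02290 among them. On deposited values the means in HL 1 mM were 2.04 times the control for Cz15g04070 and 0.547 times for Cz01g02290, beside a median log2 shift of all genes of 0.41. Without quantile normalization Cz01g02290 was lower by less than 2-fold in both 1 mM conditions, with −0.83 in HL 1 mM and −0.94 in LL 1 mM, and with libraries scaled to the same sum these were −0.63 and −0.77. The change of Cz15g04070 in HL 1 mM was 0.98 on deposited values and 1.17 with the same sum.

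**Figure D2:**
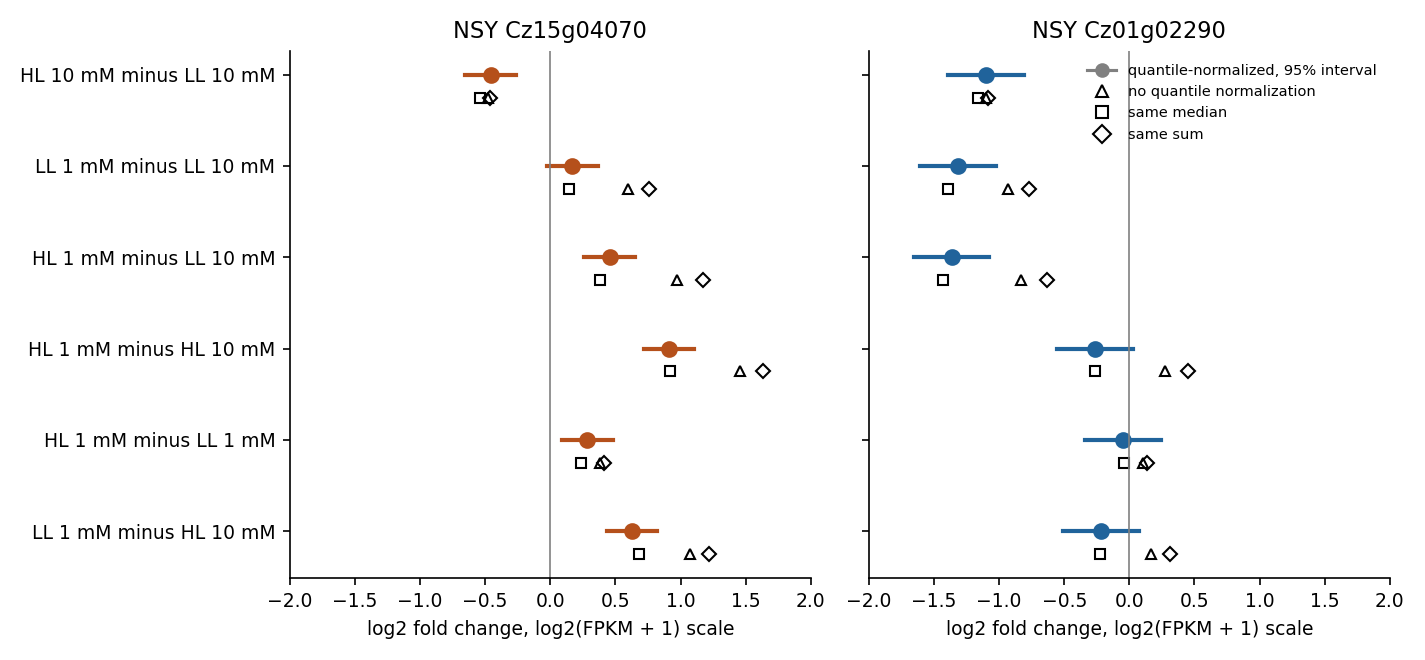
Log2 fold changes of the 2 NSY genes in 6 comparisons of conditions, on the log2(FPKM + 1) scale, with the 95% interval after quantile normalization (filled points and bars) and the values under 3 other scalings (open symbols). All 4 scalings place Cz01g02290 below 0 in the 3 comparisons with LL 10 mM and Cz15g04070 above 0 in HL 1 mM minus HL 10 mM, while the other comparisons of Cz01g02290 change sign with the scaling.

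The order of the normalized levels differed between the genes. For Cz15g04070 it was HL 1 mM, LL 1 mM, LL 10 mM and HL 10 mM from high to low, where only the last neighbours, LL 10 mM and HL 10 mM, differed by the limma test. LL 1 mM exceeded HL 10 mM by 0.63 (standard error 0.09, adjusted p = 0.000202), against 21.9% of all genes that were higher in that comparison, and the difference was 1.07 on deposited values and 1.22 with the same sum. For Cz01g02290, LL 10 mM was followed by HL 10 mM, then LL 1 mM, with HL 1 mM lowest, and only LL 10 mM and HL 10 mM differed among neighbours. The difference of Cz01g02290 between LL 1 mM and HL 10 mM was −0.21 (95% interval −0.51 to 0.08, adjusted p = 0.196), and it was 0.17 on deposited values.

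The ratio of the 2 genes within a library is not changed when all its values are multiplied by 1 factor, and on deposited values it separated all 4 conditions. The FPKM of Cz15g04070 divided by that of Cz01g02290 was 1.41, 1.51 and 1.47 in HL 1 mM, 1.19, 1.16 and 1.26 in LL 1 mM, 0.668, 0.515 and 0.661 in HL 10 mM and 0.498, 0.377 and 0.327 in LL 10 mM. The ratio averaged 1.46 ± 0.0517 in HL 1 mM, 1.20 ± 0.0538 in LL 1 mM, 0.615 ± 0.0861 in HL 10 mM and 0.401 ± 0.0878 in LL 10 mM. Neighbouring conditions did not overlap, the nearest values being the lowest HL 10 mM library at 0.515 and the highest LL 10 mM library at 0.498. Cz15g04070 therefore supplied 59.4 ± 0.857% of the summed FPKM in HL 1 mM, 54.5 ± 1.10% in LL 1 mM, 38.0 ± 3.41% in HL 10 mM and 28.4 ± 4.39% in LL 10 mM.

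Both low nitrate and high light raised the ratio. At 1 mM nitrate the ratio was 2.70 times that at 10 mM, a mean log2 change of 1.43, with 1.26 in high light and 1.60 in low light. In HL the ratio was 1.37 times that in LL, a mean log2 change of 0.46, with 0.29 at 1 mM and 0.63 at 10 mM. Both changes had p = 0.005 in a two-sided exact permutation test that exchanged the labels of one factor within each level of the other, the smallest p that its 400 arrangements can give, and 0.005 after Benjamini-Hochberg adjustment over the 2 tests. Whether the light effect on the ratio differed between the nitrate levels was not tested, and single conditions were not tested against each other, since 3 libraries against 3 cannot give a p below 0.1. How many other pairs of genes show such changes of their ratio was not counted. In the fits of single genes, low nitrate on average raised 27.8% of all genes and lowered 36.7%, and high light raised 5.31% and lowered 4.45%.

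**Figure D3:**
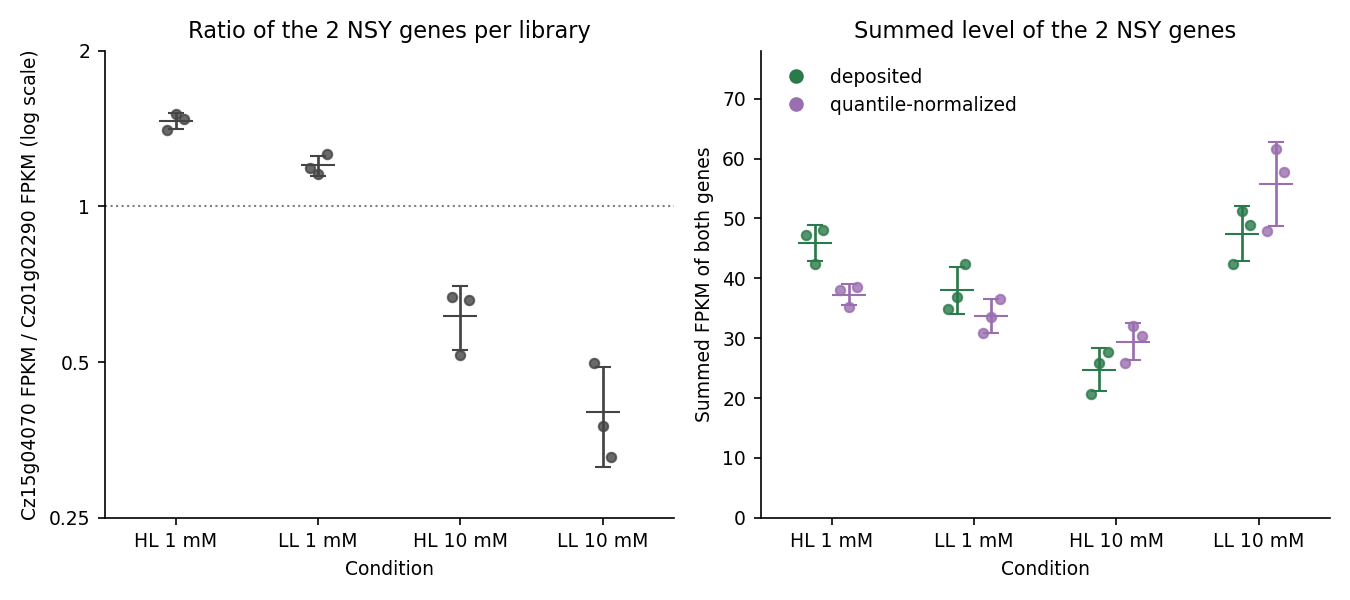
Left, ratio of Cz15g04070 to Cz01g02290 FPKM in each library on a log scale, with the dotted line at equal levels. Right, summed FPKM of both genes, deposited and quantile-normalized, with points for libraries and lines and bars for mean and SD (n = 3). The ratio lies above 1 in both 1 mM conditions and below 1 in both 10 mM conditions, and the mean sum is lowest in HL 10 mM on both scales.

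The summed level of both genes on deposited values was 45.9 ± 3.05 FPKM in HL 1 mM, 38.0 ± 3.96 in LL 1 mM, 24.7 ± 3.61 in HL 10 mM and 47.5 ± 4.57 in LL 10 mM. After quantile normalization it was 37.3 ± 1.79 in HL 1 mM, 33.6 ± 2.85 in LL 1 mM, 29.4 ± 3.12 in HL 10 mM and 55.8 ± 7.03 in LL 10 mM. HL 10 mM had the lowest mean sum on both scales, although its libraries overlapped those of LL 1 mM after normalization. On deposited values HL 1 mM, at 42.5 to 48.1 FPKM, overlapped LL 10 mM, at 42.4 to 51.2 FPKM, but after normalization it did not. The sum is given as a description, with no test.

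Among the neighbouring enzymes of the xanthophyll cycle, ZEP stood apart in the control and both genes named VDE split by nitrate. ZEP (Cz07g30060), which forms the violaxanthin that NSY uses, had 55.1, 51.3 and 54.6 normalized FPKM in HL 1 mM, 69.7, 60.9 and 66.8 in LL 1 mM, 57.8, 60.9 and 69.4 in HL 10 mM and 115, 111 and 109 in LL 10 mM. As with Cz01g02290, the control libraries stood above all others. VDE Cz06g02070 had 71.5, 63.8 and 63.9 normalized FPKM in HL 1 mM, 71.4, 71.1 and 72.3 in LL 1 mM, 105, 111 and 116 in HL 10 mM and 113, 111 and 116 in LL 10 mM, so that it split by nitrate alone. VDE Cz06g01120 had 38.1, 38.3 and 32.3 in HL 1 mM, 35.5, 35.3 and 33.4 in LL 1 mM, 27.8, 27.0 and 28.3 in HL 10 mM and 23.7, 24.3 and 25.1 in LL 10 mM, and its 6 libraries at 1 mM lay above its 6 at 10 mM.

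**Figure D4:**
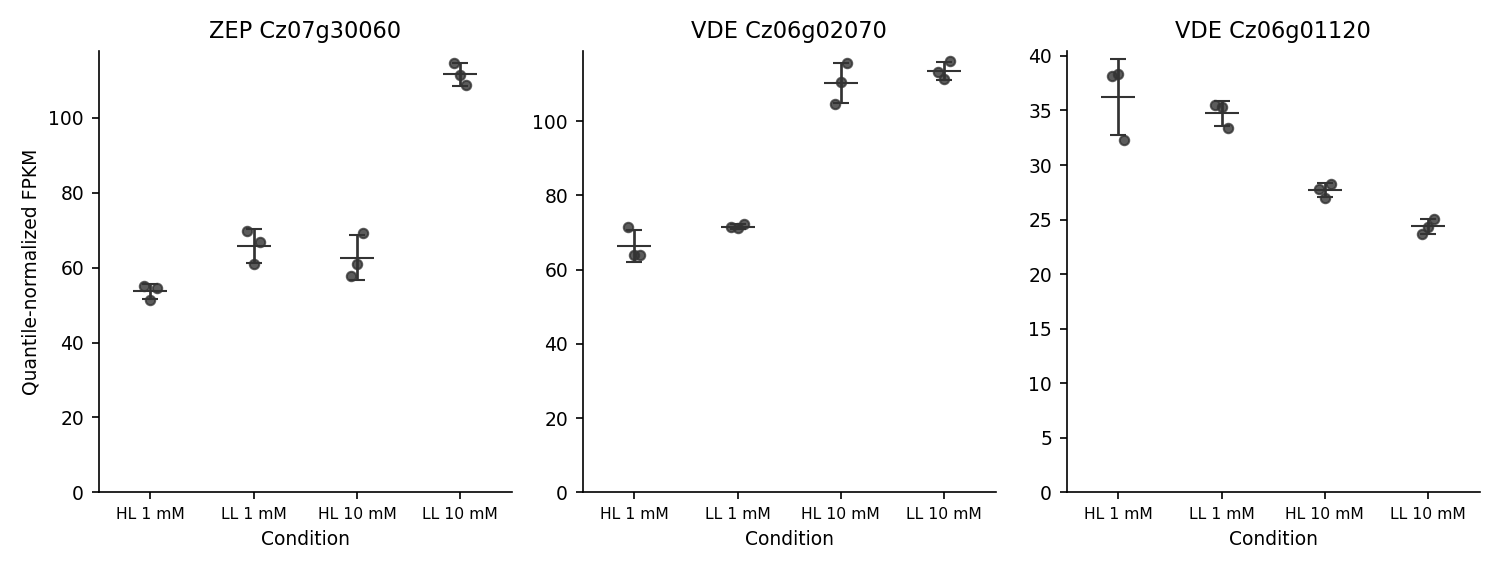
Quantile-normalized FPKM of ZEP Cz07g30060, VDE Cz06g02070 and VDE Cz06g01120 in each library (points), with mean and SD (n = 3), by condition. ZEP is highest in LL 10 mM, VDE Cz06g02070 is lower at 1 mM than at 10 mM nitrate, and VDE Cz06g01120 is higher at 1 mM.

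Averaged over both irradiances, the nitrate effect (1 mM minus 10 mM) was −0.49 for ZEP (standard error 0.06, limma adjusted p = 2.25e-05), −0.69 for VDE Cz06g02070 (standard error 0.05, adjusted p = 2.29e-07) and 0.43 for VDE Cz06g01120 (standard error 0.05, adjusted p = 2.64e-05). After quantile normalization the VDE genes thus moved in opposite directions with nitrate, as the NSY genes did. The fall of ZEP did not pass when libraries were scaled to the same sum, at −0.09 (adjusted p = 0.278). Averaged over both nitrate levels, high light lowered ZEP by the limma test, with −0.56 (standard error 0.06, adjusted p = 9.55e-05). For ZEP it was −0.83 at 10 mM nitrate (limma adjusted p = 0.000123), while −0.29 at 1 mM did not pass (adjusted p = 0.0654). Neither VDE gene passed the test of the averaged light effect, with −0.08 for Cz06g02070 and 0.12 for Cz06g01120 (adjusted p = 0.374 and 0.222). On deposited values the light effect on VDE Cz06g01120 was 0.21 and passed (adjusted p = 0.0265), as it did with libraries scaled to the same sum and without HL 1 mM replicate 3. The interaction of ZEP was 0.54 (standard error 0.11, adjusted p = 0.0267), positive like those of both NSY genes. The ZEP interaction missed the threshold in 7 of 12 leave-one-out fits (adjusted p up to 0.0727), which dropped replicate 2 or 3 of LL 10 mM, replicate 1 or 2 of HL 10 mM, replicate 2 of LL 1 mM, and replicate 1 or 3 of HL 1 mM.

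Among the 25 carotenogenic genes as a whole, low nitrate in high light gave 5 higher, 15 lower and 5 that did not pass the limma test, with a median log2 fold change of −0.27, against −0.08 over all genes tested, of which 24.7% were higher and 33.2% lower. The 5 that were higher were Cz15g04070, VDE Cz06g01120, CVDE, BKT1 and CRTISO2, a carotene isomerase, and Cz01g02290 was among those that did not pass. Higher irradiance at 1 mM nitrate gave 5 higher, 2 lower and 18 that did not pass, with a median of 0.14, against −0.0042 over all genes, of which 2.82% were higher and 2.41% lower. Both NSY genes were among the 18. On average over both irradiances, low nitrate gave 6 higher and 15 lower, where 27.8% of all genes were higher and 36.7% lower. On average over both nitrate levels, high light gave 9 higher and 4 lower, where 5.31% of all genes were higher and 4.45% lower. The 4 that were lower were Cz01g02290, ZEP, LCYe and CYP97A2. The counts of the comparisons between conditions changed with the scaling. Counts averaged over a factor, and those of the interaction, were made after quantile normalization only. A positive interaction was called for 3 of the 25, which were Cz15g04070, Cz01g02290 and ZEP, against 3.1% of all genes, and a negative one for 1, the carotene hydroxylase CYP97A1, against 2.37%. CRTISO2 and CYP97A1 are named after their values were seen. The study drew up this list and tested it on these samples, so its counts are not independent evidence of a direction.

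The likeness of patterns was measured as Pearson's r of normalized log2 values over the 12 libraries, which share the 4 conditions as clusters, and it is given as a description. The 2 NSY genes had r = −0.208 with each other (−0.0242 on deposited values). Among the other carotenogenic genes, those most like Cz01g02290 were ZEP (r = 0.925), LCYe, the lycopene ε-cyclase that opens the lutein branch (r = 0.90), and CYP97A2, a cytochrome P450 carotene hydroxylase (r = 0.89). On deposited values these were 0.871, 0.658 and 0.605. Those most like Cz15g04070 were CVDE (r = 0.803), named for a violaxanthin de-epoxidase of *Chlamydomonas*, BKT1, a β-carotene ketolase of astaxanthin synthesis (r = 0.67), and VDE Cz06g01120 (r = 0.597), with 0.922, 0.798 and 0.813 on deposited values. The study counts CVDE among the β-cyclases. VDE Cz06g02070 had r = 0.725 with Cz01g02290 and −0.785 with Cz15g04070.

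Many genes without a name in the files resembled an NSY gene more closely. Of 13052 genes with a mean of at least 1 FPKM, 411 had r over 0.9 with Cz15g04070 and 181 with Cz01g02290. The most alike to Cz15g04070 was Cz02g39090 (r = 0.986), with 19.6 ± 1.36 normalized FPKM in HL 1 mM, 14.5 ± 1.97 in LL 1 mM, 7.0 ± 0.941 in HL 10 mM and 12.5 ± 1.51 in LL 10 mM. Next was Cz11g19120 (r = 0.984), with condition means of 0.660 to 3.01 normalized FPKM and 0.362 to 4.87 deposited, a low level near the pseudocount of 1. The most alike to Cz01g02290 was Cz16g12070 (r = 0.985), with 17.6 ± 1.39 normalized FPKM in HL 1 mM, 18.9 ± 1.27 in LL 1 mM, 21.4 ± 1.44 in HL 10 mM and 45.9 ± 7.71 in LL 10 mM. It was followed by Cz09g32080 (r = 0.983), with condition means of 109 to 287 normalized FPKM.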

How the data were processed

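Stranded mRNA libraries of 12 samples were quantified by the authors with the MARACAS pipeline (FastQC v0.12.0, HISAT2 v2.1, StringTie v2.2.1) on the genome assembly and annotation v5.6. The deposited FPKM values, read as such because the column sums differ between 956599 and 1126290, are not quantile-normalized. They hold no read counts, and the study gives the depth only as an approximate number of reads per sample, so counting error was not estimated. After removal of 358 of the 15274 genes, which were at 0 throughout, and addition of a pseudocount of 1, log2 values of 14916 genes were quantile-normalized and fitted with limma 3.58.1 in R 4.3.3, with 4 condition means or with nitrate, light and their interaction. The interaction was dropped for genes where its unadjusted p was 0.05 or more. The threshold for a call was 0.05 for the p-value adjusted by Benjamini-Hochberg across the 14916 genes, with 2-fold added where stated. The ratio of the 2 genes used deposited FPKM. Genes named are the NSY, ZEP and VDE genes, the 3 carotenogenic genes and the 2 of all genes most correlated with each NSY gene, with CRTISO2 and CYP97A1 added after their values were seen. The members and lists were chosen with earlier results of these data known. Alternatives were a pseudocount of 0.1 in the fits, a filter on mean FPKM, other scalings, a trended and robust prior, the replicate number as a block, fits of 6 libraries, the interaction kept in every model and leaving out each library. The fits were tested on simulated data that held no shift between whole libraries, so that test says nothing on the choice of scaling. Cell type markers do not apply to a unicellular alga, and carotenoid contents were not analysed here.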

Additional observations from a re-analysis of the deposited data

Results flagged for a closer look

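The light effect differed between the nitrate levels for both NSY genes by the interaction term of the limma model. For Cz15g04070 the difference was 0.74 on the log2 scale (adjusted p = 0.012), with a light effect of 0.28 at 1 mM and −0.46 at 10 mM nitrate. For Cz01g02290 it was 1.05 (adjusted p = 0.0153), with −0.05 at 1 mM and −1.10 at 10 mM. Single libraries were not tested for standing apart, since each condition has 3.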

How the results depend on the processing

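Scaling was the choice that moved the results. Without quantile normalization and with libraries scaled to the same sum, the difference of Cz15g04070 between LL 1 mM and LL 10 mM passed the test at 0.59 and 0.76. In that comparison 7969 and 10116 genes were called higher on these scales, and 985 and 566 lower. On the same scales Cz01g02290 turned positive in HL 1 mM against HL 10 mM (0.28 and 0.45, adjusted p = 0.101 and 0.00939), in HL 1 mM against LL 1 mM (0.11 and 0.14) and in LL 1 mM against HL 10 mM (0.17 and 0.31), and the light effect on VDE Cz06g02070 turned to 0.0478 and 0.0735. The nitrate effect on Cz01g02290 was −0.16 with the same sum and missed the threshold. The share of called genes that were higher was 50.6% for HL 10 mM against the control, 45.8% for LL 1 mM against the control, 46.4% for HL 1 mM against the control, 42.7% in HL 1 mM against HL 10 mM, 53.9% in HL 1 mM against LL 1 mM and 42.3% in LL 1 mM against HL 10 mM, and without quantile normalization 73.3%, 89.0%, 90.0%, 83.9%, 81.3% and 80.0%, in that order. With the same sum it was 76.7% to 94.8%. With the same median, that share was 40.7% in HL 1 mM against LL 1 mM. The carotenogenic genes in HL 1 mM against HL 10 mM were 8 higher and 8 lower without quantile normalization and 12 and 6 with the same sum, and in HL 1 mM against LL 1 mM 0 were lower on both scales and 2 were higher with the same median and 9 with the same sum. Leaving out 1 library gave 0.22 to 0.37 for Cz15g04070 in HL 1 mM against LL 1 mM and −0.37 to −0.17 for Cz01g02290 in HL 1 mM against HL 10 mM, the results of the NSY genes that gained a call at the adjusted p that way. No call of theirs at the adjusted p was lost, and the 2-fold call of Cz01g02290 in HL 10 mM against LL 10 mM was lost without HL 10 mM replicate 1. In the limma fits, a pseudocount of 0.1, the filter on mean FPKM, the prior, the fits of 6 libraries and the interaction kept in every model changed no call of the NSY genes. The log2 ratio changed by 1.36 to 1.52 with nitrate and 0.39 to 0.54 with light over the 12 fits without 1 library. Of 18 correlations between the deviations of same-numbered libraries, 12 were over 0.1 (−0.0598 to 0.443), and 9 of 12 libraries were closest to one of their own number. Since not every pair was over 0.1 and no label says what the number marks, the libraries were not treated as paired. With the replicate number as a block no call of the NSY genes changed, the interactions had adjusted p of 0.0107 (Cz15g04070) and 0.00828 (Cz01g02290), and the changes of the ratio had p = 0.0313 by exact sign flips of the 6 same-numbered differences, the smallest they can give. The missing read counts limit what can be said of counting error.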

Other observations

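Outside LL 10 mM, the same library held the lowest or the highest value of its condition for both NSY genes, which is given without a test. How often other pairs of genes share such a library was not counted. The median of all genes was also highest in LL 1 mM replicate 3 (19.0 FPKM) and lowest in HL 1 mM replicate 2 (19.8 FPKM) within their conditions. In HL 10 mM it was lowest in replicate 2 (13.0 FPKM) rather than replicate 1. HL 10 mM replicate 1 held the lowest deposited FPKM of its condition for both genes (8.29 for Cz15g04070 and 12.4 for Cz01g02290), LL 1 mM replicate 3 held the highest for both (23.7 and 18.8), and HL 1 mM replicate 2 the lowest for both (25.5 and 16.9). In LL 10 mM the genes parted, since replicate 1 held the highest value of Cz15g04070 (14.1) and the lowest of Cz01g02290 (28.3), which gave the highest ratio of that condition (0.498).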
